A study of Rattus norvegicus with 6 samples.

Results

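The galactose group is the only group of this lens culture series with replicates, and its 3 arrays, Galactose-1, Galactose-2 and Galactose-3, are described here against each other, gene by gene. The members are the probe sets linked to a gene whose log2 signal was at least 5 on at least 1 of the 3 arrays. There were 5293 of them, out of 19086 linked probe sets and 36685 probe sets in all. Of the 5293, 5108 carried 1 gene symbol and covered 5008 genes. A signal of 5 was reached on all 3 arrays by 4123 probe sets, on 2 arrays by 576 and on 1 array alone by 594 (182 through Galactose-1, 136 through Galactose-2 and 276 through Galactose-3). A probe set that passed through 1 array alone had to differ between arrays. At the edge of the filter, 31 kept probe sets had a highest value from 5 to under 5.01, and 29 with a highest value from 4.99 to under 5 were left out.

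The lenses came from male Sprague-Dawley rats 6 weeks of age and were cultured whole in M199 medium with BSA. The galactose lenses were kept in 30 mM galactose for 6 days, with DMSO as the vehicle per the methods. The other groups had 1 array each. Lenses of the AZD0156 and KU55933 groups stood in galactose for as long, and for the final 3 days their medium also held 20 µM of the named compound, an inhibitor of the DNA damage kinase Atm. The Control had no galactose and, per the methods, sterile water in its place. The array was the GeneChip Rat Gene 2.0 ST. Each probe set has a log2 signal, normalized over all 6 arrays together by the Robust Multi-array Average method, so that a difference of 1 is a 2-fold difference. The labels number the galactose arrays as replicates and do not say whether they are separate animals, lenses or cultures. How many lenses went onto an array is also not stated in the sources at hand. Biological and technical spread therefore cannot be told apart in the values that follow, and the number of arrays limits their precision.

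The lens is built of a layer of epithelial cells under the front of its capsule, a thick basement membrane, and of a mass of fibre cells that arise from that epithelium. Fibre cells are filled with crystallins and lose their nuclei and organelles, so that much of the RNA synthesis of the lens takes place in the epithelium and the young outer fibres. The lens has no blood supply and lives largely by glycolysis at low oxygen. In galactose, aldose reductase makes the sugar alcohol galactitol, which is trapped in the cells and draws in water, and this is the basis of the galactose cataract.

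Most genes differed little between the 3 arrays. The SD over the arrays had a median of 0.206 on the log2 scale, a 5th percentile of 0.0517 and a 95th percentile of 0.547, and its highest value was 2.45. Probe sets were ranked by their galactose mean and split into 20 bins of like number, and the median SD was 0.375 in the lowest bin and 0.177 to 0.230 in the others. The lowest bin held means from 4.07 to 4.86, where a probe set was kept only if an array rose to 5. Part of its high median SD thus follows from the filter, and relative SDs in that bin are lowered by it. A relative SD was used throughout, the SD of a probe set divided by the median SD of its bin. In each bin the 10% with the highest SD are called most variable and the 10% with the lowest SD least variable, which gives 533 probe sets in each case (10.1% and 10.1% of those kept by construction). In all, 307 probe sets (5.8%) had a range over the 3 arrays of at least 1.

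**Figure D1:**
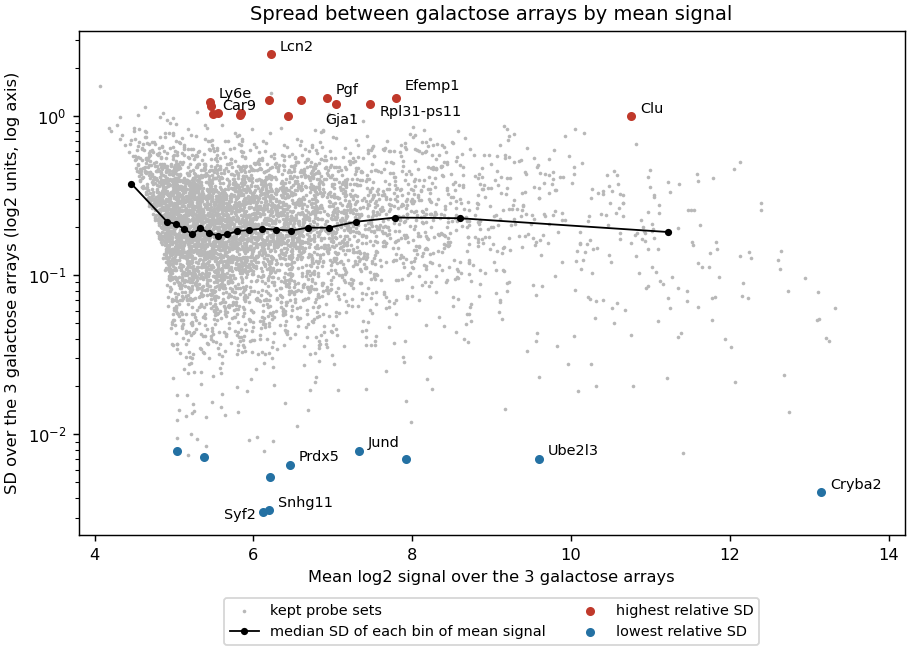
Spread between the galactose arrays against signal. Each grey point is 1 of 5293 kept probe sets, with the mean log2 signal over the 3 arrays on the x axis and the SD over the arrays, in log2 units on a log axis, on the y axis. The line joins the median SD of each of the 20 bins, which is 0.375 in the lowest bin and 0.177 to 0.230 in the others. Red points are the 15 genes with the highest relative SD, with Lcn2 at an SD of 2.45 on top. Blue points are the 10 with the lowest, Syf2 and Cryba2 among them. Both sets hold only probe sets with 1 gene symbol.

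Galactose-1 stood farther from the other 2 arrays than these stood from each other. The SD of the difference over probe sets was 0.443 between Galactose-1 and Galactose-2 and 0.454 between Galactose-1 and Galactose-3, against 0.304 between Galactose-2 and Galactose-3. A difference of at least 1 was found for 177, 219 and 37 probe sets in these 3 pairs. Galactose-1 was nearer to the single KU55933 array (SD of the difference 0.313, with 45 probe sets differing by at least 1) than to either other galactose array, while it was at 0.476 from AZD0156 and 0.636 from the Control. Galactose-2 was at 0.419 and Galactose-3 at 0.397 from KU55933. Galactose-1 held 48.4% of the squared deviations from the galactose mean, Galactose-2 24.1% and Galactose-3 27.4%. Galactose-1 was the array farthest from the galactose mean for 2626 probe sets (49.6%) of all those kept, and for 397 of the 533 most variable (74.5%), where it was the low array in 276 and the high array in 121. What sets Galactose-1 apart was not tested.

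Each array was set against the mean of the other 2. Galactose-1 was higher by at least 1 for 48 probe sets (0.907%) and lower by at least 1 for 116 (2.19%). The median difference of Galactose-1 over all probe sets was -0.10, and after each array was centred on the same median the 2 counts were 71 and 83. Galactose-2 was higher by at least 1 for 23 probe sets (0.435%) and lower for 8 (0.151%), and Galactose-3 was higher for 34 (0.642%) and lower for 19 (0.359%). As for the order of the arrays, Galactose-1 was lowest for 48.7% of probe sets and highest for 28.8%. Galactose-2 was lowest for 28.8% and highest for 30.5%, and Galactose-3 was lowest for 22.5% and highest for 40.6%. These shares are the background for the gene lists below.

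Lcn2, which encodes the secreted iron carrier lipocalin 2, an innate defence protein made by stressed epithelia, was the most variable gene. Its log2 signal was 4.92 on Galactose-1, 9.04 on Galactose-2 and 4.70 on Galactose-3, with 3.96 for AZD0156, 4.91 for KU55933 and 5.09 in the Control. Only Galactose-2 was high, and Lcn2 passed the filter through that array alone. Its SD of 2.45 was 12.7 times the median of its bin. In a limma test of each SD against the trend of SD on signal, Lcn2 was the 1 probe set of 5293 (0.0189%) called more variable than the trend (trend SD 0.220, adjusted p = 0.023). The filter admitted Lcn2 by the same high value that makes up its SD, so this test is not independent of the filter and its p is given as a description only. The next lowest adjusted p was 0.329, and 289 probe sets (5.46%) had an unadjusted p under 0.05. With the ordinary in place of the robust estimate of the prior, the adjusted p of Lcn2 was 0.0578 and no probe set was called. The call was also lost with no filter on low values (0.455) and with no trend (0.523), and the adjusted p was 0.0125 to 0.0162 in the other settings that kept Lcn2 on all 3 arrays.

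The Lcn2 promoter is given because this gene carries the largest spread of the group. It is the RefSeq sequence from 250 bases before to 50 bases after the gene start, chr3:36081731-36082030 of GRCr8 on the minus strand. Capitals mark the match to kappaB, the site bound by NF-kappaB proteins, which was searched on both strands and begins at position -242 from the start.
Lcn2: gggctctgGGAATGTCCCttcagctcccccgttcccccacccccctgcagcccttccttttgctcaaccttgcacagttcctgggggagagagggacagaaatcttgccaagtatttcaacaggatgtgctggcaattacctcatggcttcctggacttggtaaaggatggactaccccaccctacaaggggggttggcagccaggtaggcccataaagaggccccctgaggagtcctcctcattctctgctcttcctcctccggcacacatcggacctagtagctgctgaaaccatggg
A kappaB match stood in 7.51% of 33469 RefSeq promoters of this length and in 9.93% of the promoters of 4220 kept genes. The match is a description of the letters and shows no binding.

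Other inflammatory genes spread less than Lcn2. Of 12 kept genes of an inflammatory and TNF receptor list, 3 were among the most variable, against 10.1% of all kept probe sets. The chemokine Ccl2, which draws monocytes, had 6.61, 7.35 and 6.41 on Galactose-1, Galactose-2 and Galactose-3, with Galactose-2 highest by less than 1. Cx3cl1, the membrane-bound chemokine fractalkine, had 4.59, 5.98 and 5.60 and was low on Galactose-1. Lif, a cytokine of the interleukin 6 family, had 5.84, 4.54 and 4.79 and was high on Galactose-1. The NF-kappaB inhibitor gene Nfkbia had 5.39, 5.84 and 5.65, a relative SD of 1.26, and Nfkb1 itself 5.19, 5.40 and 5.44.

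The 15 genes with the highest relative SD were taken from probe sets with 1 gene symbol. Left out by that rule were, for example, a probe set of H2az2 and related symbols (SD 1.40, trend SD 0.220) and the Tf and Srprb probe set (SD 1.07, trend SD 0.220). Several of the 15 genes were low on Galactose-1. Others were not, among them Rpl31-ps11, Cd55, Emp1 and Zfp658l1. Car9 was lowest on Galactose-1 but differed more on Galactose-3, where it was high. The values of these genes are given with their groups further on. Ly6e, a lipid-anchored surface protein, had a log2 signal of 4.04 on Galactose-1, 6.32 on Galactose-2 and 5.99 on Galactose-3, a relative SD of 6.68. Chrdl1, a secreted antagonist of bone morphogenetic proteins, had 4.74, 6.82 and 7.03. Pgf, placental growth factor, a ligand of the VEGF family, had 5.47, 7.32 and 7.97. Each of these was lower on Galactose-1 than on either other array by more than 1.8, and for Ly6e and Chrdl1 the AZD0156 and KU55933 arrays lay inside the galactose range and the Control array (6.92 and 7.32) above it. Cpm, a membrane carboxypeptidase, had 5.15, 7.24 and 7.43, and the fibulin gene Efemp1 had 6.29, 8.46 and 8.63. The carbonic anhydrase gene Car14 had 4.19, 6.40 and 5.82. Clu, which encodes the secreted chaperone clusterin, had 9.62, 11.17 and 11.47 with an SD of 0.994, the highest SD among the 242 genes with a mean signal of 9 and over, a class whose median SD was 0.183. Sod3, the extracellular superoxide dismutase, had the lowest value on Galactose-1 of all these genes, at 2.31, against 5.15 and 4.75 on Galactose-2 and Galactose-3. It was kept through Galactose-2 alone, so its spread is not independent of the filter.

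**Figure D2:**
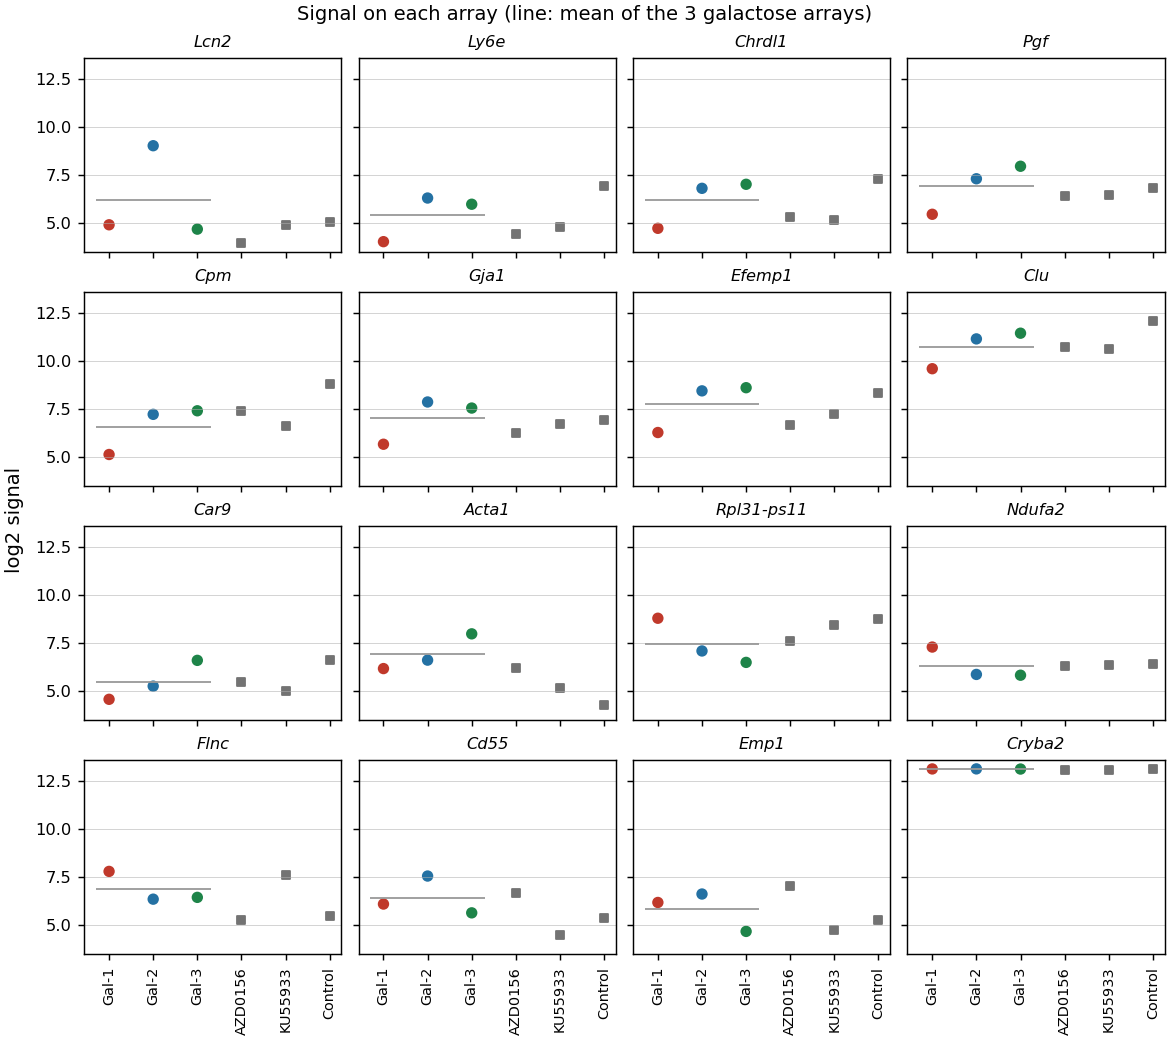
Log2 signal of 16 genes on each array. Coloured points are Galactose-1, Galactose-2 and Galactose-3 from left to right, the line is their mean, and grey squares are the single AZD0156, KU55933 and Control arrays. Lcn2 is high on Galactose-2 alone, Gja1, Efemp1 and Clu are low on Galactose-1, Car9 and Acta1 are high on Galactose-3, and Cryba2 lies at 13.15, 13.15 and 13.14 on the 3 galactose arrays.

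Genes of the lens epithelium were lower on Galactose-1. Of 26 listed genes 25 are on the array and 15 were kept, of which 7 were among the most variable and 0 among the least variable, against 10.1% and 10.1% of all kept probe sets. Galactose-1 was the lowest array for 14 of the 15, with Efna5 the exception, against 48.7% of all kept probe sets. The median relative SD of the list was 2.37, and it was 1.11 when Galactose-1 was left out. The median difference of Galactose-1 from the other 2 arrays was -0.79, and -0.70 with the arrays centred. Since these arrays measure whole lenses, fewer epithelial cells and less RNA per epithelial cell cannot be told apart.

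Gja1, a gap junction protein of the epithelium, led the list with 5.68 on Galactose-1, 7.88 on Galactose-2 and 7.57 on Galactose-3. Galactose-1 lay 2.04 below the mean of the other 2, an SD of 1.19 over the 3 arrays. The cadherin gene Cdh1, which joins epithelial cells, had 7.03, 8.38 and 8.62. Pax6, the transcription factor that specifies the eye and is kept in the lens epithelium, had 6.57, 7.87 and 7.85. Mab21l1, needed for lens formation, had 4.76, 5.87 and 5.24, and the transcription factor gene Tfap2a had 5.04, 5.93 and 5.75. Not every epithelial gene spread as far. Foxe3, a transcription factor confined to the lens epithelium, had 4.48, 5.05 and 4.92, with Galactose-1 0.50 below the mean of the other 2. Its relative SD was 0.79, but it was kept through Galactose-2 alone and lies in the lowest bin, where relative SDs are lowered. Cdh2, a second cadherin shared with fibres, had 7.16, 7.59 and 7.74.

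Fibre cell genes spread about as much as genes of like signal. Of 15 kept genes of the fibre list, 1 was among the most variable, the intermediate filament gene Vim with 11.54 on Galactose-1, 12.42 on Galactose-2 and 12.43 on Galactose-3. The median relative SD was 0.93. The beaded filament gene Bfsp1 had 11.34, 11.60 and 11.64. Mip, the water channel aquaporin 0 of fibre membranes, had 11.05, 10.88 and 10.97, and the membrane protein gene Lim2 had 11.65, 11.53 and 11.64. The range over the arrays was 0.170 for Mip and 0.113 for Lim2.

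Markers of immune cells, endothelium, retina and blood were low, while a few markers of smooth muscle and of iris and ciliary body were not. Of the immune cell, endothelial, retinal and blood lists, with 14, 8, 12 and 2 genes on the array, 0 were kept, and their highest values on a galactose array were 4.74, 3.72, 3.94 and 3.70. The summed log2 signal of the immune list was 37.2 on Galactose-1, 44.0 on Galactose-2 and 39.0 on Galactose-3, so that it was highest on the array that was high in Lcn2, and its part in that result was not tested. Of the smooth muscle list Tagln, with a highest value of 8.51, and Cald1 were kept, and of the iris and ciliary body list Ptgds (11.36, 11.66 and 11.60), Car2 and Mitf were kept, with none of these 3 among the most variable. The summed signal of the iris and ciliary body list was lowest on Galactose-1, at 49.2, against 51.6 on Galactose-2 and 52.1 on Galactose-3, and its part in the epithelial result was not tested.

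The list of the extracellular matrix, the capsule and TGF-beta signalling had the highest median relative SD of the lists with at least 5 kept probe sets, at 2.89. Of its 17 kept genes 10 were among the most variable and 2 among the least variable, against 10.1% and 10.1% of all kept probe sets. Galactose-3 was the highest array for 13 of the 17, against 40.6% of all kept probe sets. Galactose-1 was the lowest for 11, against 48.7%. The median difference of Galactose-3 from the other 2 arrays was 0.66. Without Galactose-3 the median relative SD was 1.40.

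Several members of this list are parts of the basement membrane. Nid1, which links laminin to collagen IV, had a log2 signal of 6.09 on Galactose-1, 7.63 on Galactose-2 and 8.02 on Galactose-3, with Galactose-1 apart. Among the collagen IV chains, Col4a1 had 5.75, 6.07 and 6.84 and Col4a2 had 4.65, 5.42 and 5.82, and Col4a3 had 5.26, 5.88 and 6.46 and Col4a5 4.97, 5.53 and 6.05. These 4 listed chains were lowest on Galactose-1 and highest on Galactose-3. Col4a4, a kept chain outside the list, had 5.22, 5.27 and 6.01 and was high on Galactose-3 alone. The laminin chain Lamc1 had 5.43, 5.12 and 6.17 and was high on Galactose-3 alone. Sparc, a matricellular protein of the capsule, had 9.26, 10.60 and 10.63, and Timp1, an inhibitor of matrix metalloproteinases, had 9.09, 10.15 and 10.53. Ccn2, connective tissue growth factor and a target of TGF-beta and YAP signalling, ran the other way with 7.69, 6.11 and 6.77, as did Nid2 with 5.84, 4.88 and 5.16. The receptor gene Tgfbr1 hardly differed, at 5.82, 5.82 and 5.79, and the ligand gene Tgfb3 had 5.14, 5.08 and 5.03. Fn1 was under 5 on the 3 arrays and was not kept.

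**Figure D3:**
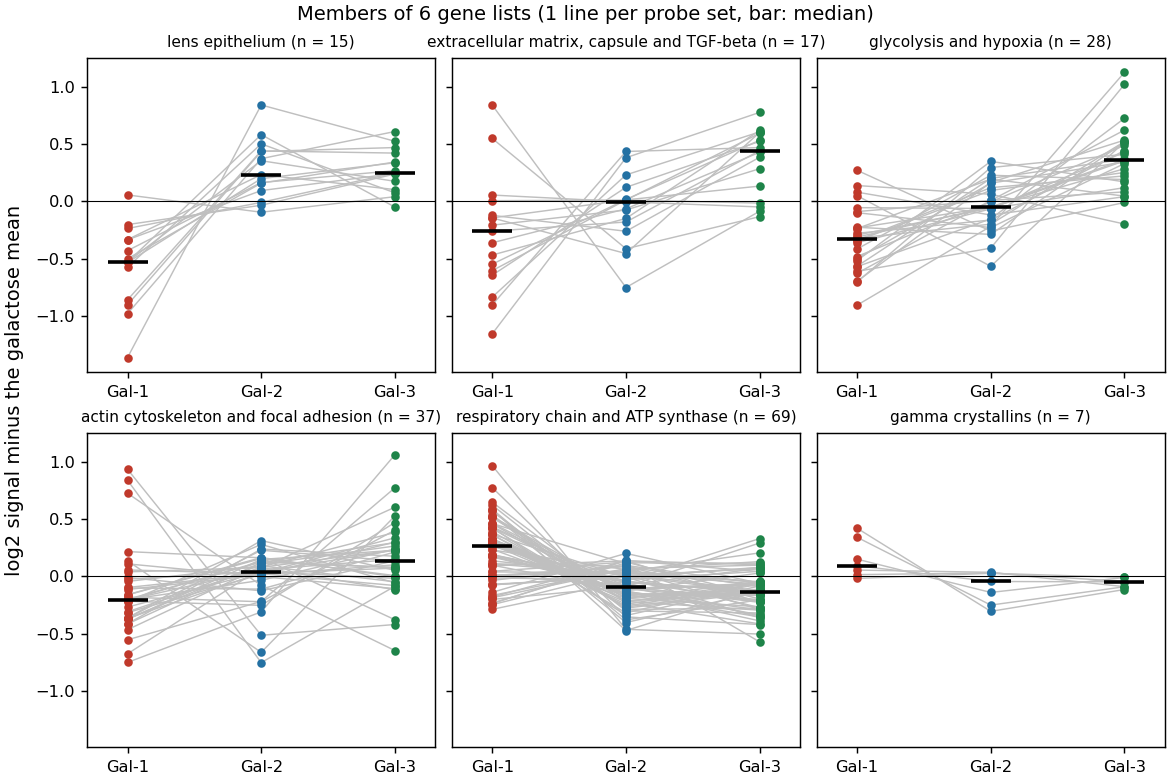
Members of 6 gene lists on the 3 galactose arrays. Each grey line is 1 probe set, the y axis is its log2 signal minus its galactose mean, and the black bars are list medians. Epithelial genes lie lowest on Galactose-1 for 14 of 15, and matrix genes highest on Galactose-3 for 13 of 17. Glycolysis and hypoxia genes lie highest on Galactose-3 for 22 of 28, and respiratory chain probe sets highest on Galactose-1 for 49 of 69. Of all kept probe sets, Galactose-1 was lowest for 48.7% and highest for 28.8%, and Galactose-3 highest for 40.6%.

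Genes of glycolysis and of the response to low oxygen were highest on Galactose-3. Of 28 kept genes 10 were among the most variable and 0 among the least variable, against 10.1% and 10.1% of all kept probe sets. Galactose-3 was highest for 22 and Galactose-1 lowest for 21, against 40.6% and 48.7% of all kept probe sets. The median difference was -0.50 for Galactose-1, -0.08 for Galactose-2 and 0.54 for Galactose-3. The median relative SD of 1.96 was 1.14 without Galactose-3. The glucose transporter gene Slc2a1 is also in the epithelial list, as is the matrix gene Sparc, so the lists are not independent.

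Car9, the membrane carbonic anhydrase that is a standard mark of hypoxia, had 4.58 on Galactose-1, 5.27 on Galactose-2 and 6.61 on Galactose-3, with 5.48 for AZD0156, 5.02 for KU55933 and 6.64 in the Control. Galactose-3 thus lay 1.69 above the mean of the other 2 arrays and close to the Control. The glucose transporter gene Slc2a3 had 4.42, 4.62 and 6.05 and was kept through Galactose-3 alone. The enolase gene Eno2 had 7.81, 8.23 and 9.10, and Ero1a, an oxidase of the endoplasmic reticulum induced by hypoxia, had 6.02, 6.65 and 7.26. Hif1a, the oxygen-regulated subunit of the hypoxia-inducible factor, had 8.75, 9.62 and 9.98, and the glycolytic isomerase gene Gpi had 9.09, 10.08 and 10.20, both with Galactose-1 apart. Other members of the list differed little. Pgk1, phosphoglycerate kinase, had 9.54, 9.64 and 9.71, the lactate transporter gene Slc16a1 had 6.69, 6.68 and 6.86, and the kinase gene Pdk1 had 6.19, 5.99 and 6.15.

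The promoters of Car9 and Eno2 are given because both genes were highest on Galactose-3 and hold the core of the hypoxia response element, ACGTG, the letters bound by hypoxia-inducible factors. It was searched on both strands, and it also lies within the E-box CACGTG. Capitals mark it. In Car9, at chr5:62558774-62559073 of GRCr8 on the plus strand, it is on the other strand, reads CACGT and begins at base 2 after the start. In Eno2, at chr4:159267171-159267470 on the minus strand, it begins at position -139 from the start.
Car9: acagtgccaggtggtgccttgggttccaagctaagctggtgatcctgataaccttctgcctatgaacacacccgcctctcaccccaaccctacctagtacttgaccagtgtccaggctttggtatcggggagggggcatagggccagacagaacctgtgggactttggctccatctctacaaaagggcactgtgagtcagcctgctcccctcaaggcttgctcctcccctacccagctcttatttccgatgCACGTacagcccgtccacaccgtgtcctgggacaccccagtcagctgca
Eno2: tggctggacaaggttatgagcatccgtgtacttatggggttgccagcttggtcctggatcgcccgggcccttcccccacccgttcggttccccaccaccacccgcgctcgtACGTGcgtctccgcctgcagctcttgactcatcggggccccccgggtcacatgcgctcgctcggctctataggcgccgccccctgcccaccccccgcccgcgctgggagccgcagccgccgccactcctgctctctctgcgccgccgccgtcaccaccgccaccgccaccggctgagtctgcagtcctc
Of the 24 listed genes with a RefSeq promoter, 18 (75%) held ACGTG, against 17 of 59 respiratory chain genes (28.8%), 29.0% of kept genes and 19.3% of all promoters. The list was written by hand as genes of glycolysis and of the response to low oxygen. Its share of ACGTG therefore says nothing about the spread between the arrays. Slc16a1 and Pdk1, which barely differed between the arrays, also hold it. Hk2, Kdm3a and Pfkp, with SDs of 0.447, 0.455 and 0.484, do not. The matches are a description of the letters and show no binding.

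The actin cytoskeleton list held genes of both directions. Of 37 kept probe sets of 36 genes, 7 were among the most variable and 2 among the least variable, against 10.1% and 10.1% of all kept probe sets. The median relative SD was 1.41. Galactose-3 was highest for 20 and Galactose-1 lowest for 24, against 40.6% and 48.7% of all kept probe sets. Acta1, skeletal muscle actin, had 6.18 on Galactose-1, 6.63 on Galactose-2 and 7.99 on Galactose-3, an SD of 0.944, against 6.24 for AZD0156, 5.17 for KU55933 and 4.30 in the Control. Galactose-3 alone was high, and the AZD0156 array lay inside the galactose range of Acta1. The focal adhesion gene Vcl had 6.28, 6.62 and 7.61, and Tagln, an actin-binding protein of smooth muscle and myofibroblasts, had 7.24, 7.98 and 8.51. Flnc, the muscle isoform of the actin crosslinker filamin, ran the other way with 7.81, 6.36 and 6.46, high on Galactose-1. The LIM domain gene Pdlim1 had 6.83, 6.03 and 7.22, low on Galactose-2. Arpc2, a subunit of the Arp2/3 complex that nucleates branched actin, had 9.80, 9.87 and 9.81, and the actin-sequestering gene Tmsb10 had 6.71, 6.67 and 6.57, both among the least variable. The summed log2 signal of the smooth muscle list, with 2 of 10 genes kept, was 38.5 on Galactose-1, 40.3 on Galactose-2 and 42.3 on Galactose-3. The 2 kept genes are Tagln, given above, and Cald1, which is also in the actin list, so this sum is not independent of the actin result. The part of the smooth muscle list in the actin result was not tested.

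The other genes of the cytoskeletal network and of growth that the study named spread unevenly. Angptl4, a secreted inhibitor of lipoprotein lipase, had 5.40 on Galactose-1, 6.27 on Galactose-2 and 6.96 on Galactose-3, a relative SD of 4.05. The proliferation marker Mki67 had 5.07, 5.14 and 5.92, high on Galactose-3. Actn1, alpha-actinin, had 6.27, 6.66 and 6.81, a relative SD of 1.40, and Csrp1 had 6.82, 7.08 and 7.17, a relative SD of 0.93. Cd47 had 5.67, 5.87 and 5.90, a relative SD of 0.67. The cytokine receptor gene Tnfrsf12a had 7.35, 7.30 and 6.76, and Plk3, a kinase of the stress response, had 5.06, 5.57 and 5.51. Acta1, Angptl4, Vcl, Tagln and Mki67 were thus among the most variable, and the other 5 were not. The Atm probe set was under 5 on the 3 arrays, at 2.94, 2.64 and 3.12.

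Respiratory chain genes were more often highest on Galactose-1, by small amounts. Of 69 kept probe sets of the respiratory chain and ATP synthase list, Galactose-1 was highest for 49, against 28.8% of all kept probe sets. Of the 48 probe sets higher on Galactose-1 by at least 1, 2 were in this list, 3 among the cytosolic ribosomal proteins and 13 among ribosomal protein-like and pseudogene symbols. The list's median difference was 0.40 for Galactose-1, -0.14 for Galactose-2 and -0.20 for Galactose-3, and a median relative SD of 1.16. There were 10 among the most variable and 8 among the least variable, against 10.1% and 10.1% of all kept probe sets. Ndufa2, a subunit of complex I, had the largest spread with 7.31 on Galactose-1, 5.88 on Galactose-2 and 5.84 on Galactose-3. Cycs, cytochrome c, had 7.11, 6.43 and 6.24, and Cox6c, a subunit of complex IV, had 6.04, 4.99 and 5.35. The ATP synthase subunit gene Atp5me had 7.30, 6.37 and 6.36. Atp5mk, an ATP synthase subunit gene outside the list, had 9.51, 8.27 and 8.21 in 1 probe set. In its brighter probe set the difference of Galactose-1 from the other 2 arrays was 0.46, with a relative SD of 1.51. Cox8a (9.54, 9.53 and 9.60) and Cox6a1 (10.76, 10.79 and 10.70) hardly differed.

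The list was split by complex after its values were seen. The median difference of Galactose-1 was 0.43 over 35 complex I probe sets, with 30 above 0, 0.46 over 10 of complex IV, with 9 above 0, and 0.48 over 12 of ATP synthase, with 9 above 0. It was 0.25 over 7 of complex III and -0.16 over 4 of complex II, the succinate dehydrogenase, with 0 above 0. The proteasome, split in the same way, had a median of 0.16 over 13 probe sets of its core particle and -0.30 over 17 of its regulatory particle, with 13 of the 17 below 0. The largest spreads there were those of the regulatory genes Psmd2 (6.87, 7.49 and 7.74) and Psmc4 (6.85, 7.51 and 7.69), and none of the 32 proteasome probe sets was among the most variable.

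Cytosolic ribosomal protein probe sets were also highest on Galactose-1, for 58 of 75, against 28.8% of all kept probe sets. These 75 covered 47 genes, so some genes count more than once. The median difference was 0.23, which was 0.099 when the 3 galactose arrays were quantile-normalized again without the others. Rps27 had 6.13 on Galactose-1, 4.88 on Galactose-2 and 4.80 on Galactose-3, and Rpl21 had 9.06, 8.10 and 7.77. Rps28 had 10.15, 9.13 and 9.30. Yet the list had 4 probe sets among the most variable and 10 among the least variable, and Rpl35 (10.34, 10.30 and 10.31) and Rpl27 (10.09, 10.07 and 10.11) were nearly level. Symbols that name ribosomal protein-like genes and pseudogenes spread more. Of 62 such probe sets 19 were among the most variable, against 10.1% of all kept probe sets. Galactose-1 was highest for 53, against 28.8%, and the median difference was 0.57. Rpl31-ps11 had 8.81, 7.10 and 6.51. These copies are nearly identical to each other and to their parent genes, so the probe sets may not measure the named locus and their identity is uncertain.

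Galactose-1 was also high for single genes outside these lists. Fv1, an endogenous retroviral restriction factor known from mice, had 8.45, 6.84 and 6.84 in 1 probe set, an SD of 0.930. Another kept Fv1 probe set had a smaller SD of 0.489. The noncoding host of small nucleolar RNAs Gas5 had 11.59 on Galactose-1, 10.35 on Galactose-2 and 10.53 on Galactose-3 in its brighter probe set, and 8.35, 7.89 and 8.20 in the other. Chac1, an enzyme that breaks down glutathione and a late target of the integrated stress response, had 6.93, 5.71 and 5.84.

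**Figure D4:**
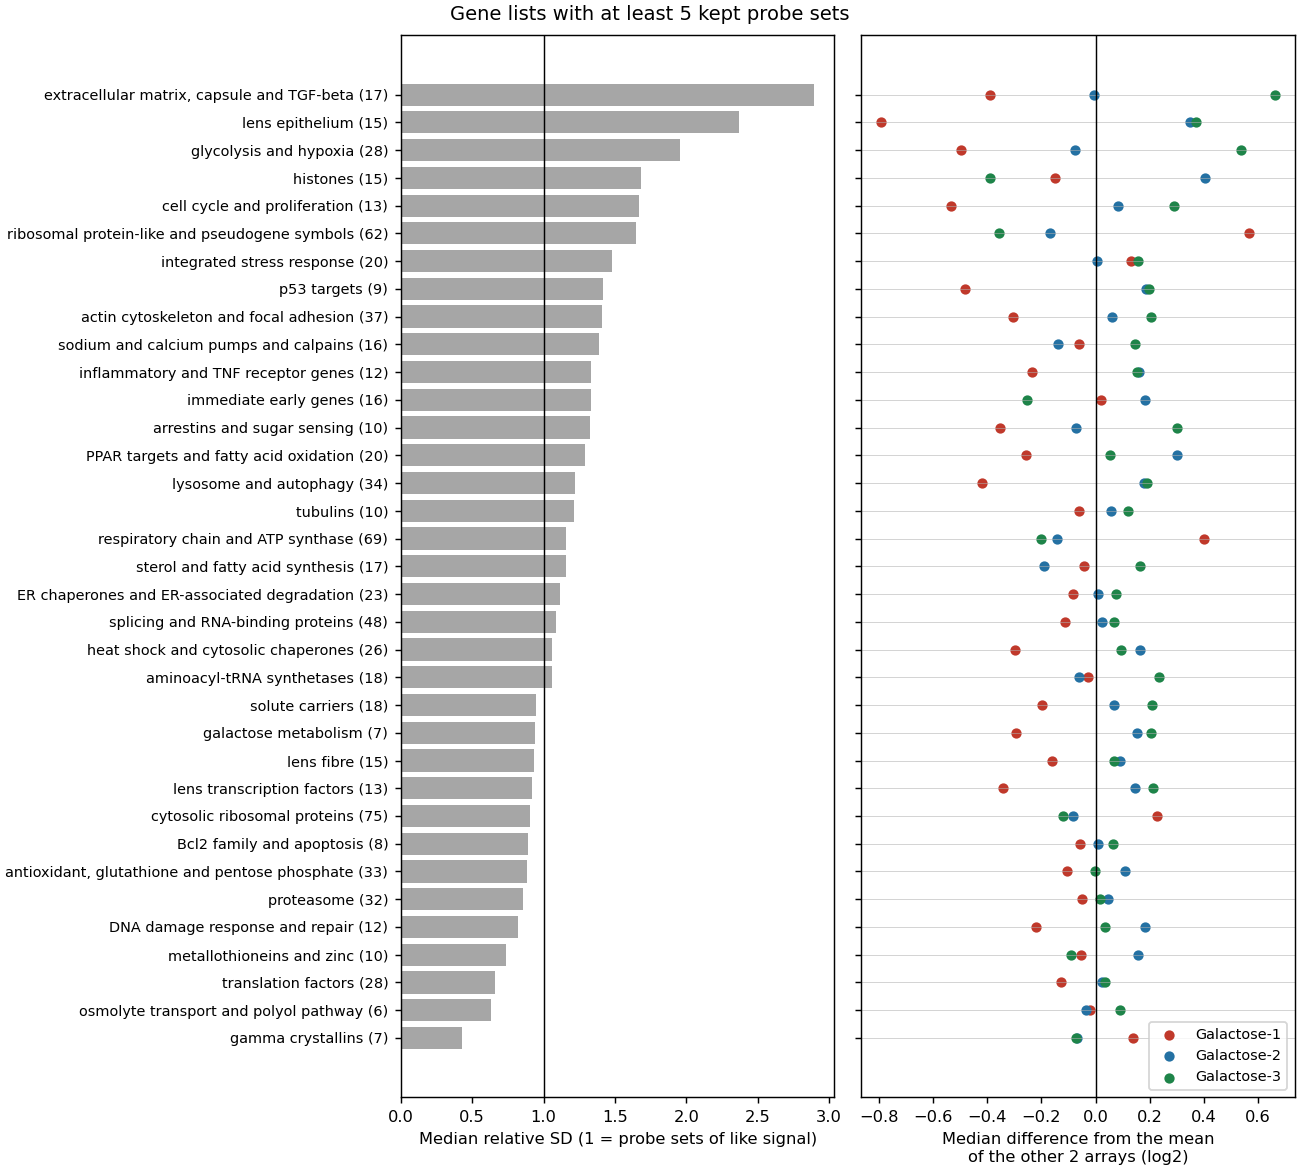
Gene lists with at least 5 kept probe sets, with the number kept in brackets. The left panel gives the median relative SD, where 1 is the level of probe sets of like signal, and the right panel gives the median difference of each galactose array from the mean of the other 2 in log2 units. The matrix list (2.89), the epithelial list (2.37) and the glycolysis and hypoxia list (1.96) are on top, and the gamma crystallins (0.43) are at the bottom.

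Genes of lysosomes and of fatty acid oxidation were more often lowest on Galactose-1. Of 34 kept genes of lysosomes and autophagy, Galactose-1 was lowest for 27, against 48.7% of all kept probe sets, and its median difference was -0.42. Of the 34, 5 were among the most variable, against 10.1% of all kept probe sets. The protease genes Ctsb, with 8.54 on Galactose-1, 9.52 on Galactose-2 and 9.44 on Galactose-3, and Ctsd, with 6.99, 7.73 and 8.22, were among these 5. The membrane protein gene Lamp1 had 7.92, 7.90 and 7.93. In the list of PPAR targets and fatty acid oxidation 5 of 20 were among the most variable and 5 among the least variable, against 10.1% and 10.1%. Galactose-1 was lowest for 15 of the 20, and the median difference was -0.26 for Galactose-1, or -0.17 with the arrays centred, and 0.30 for Galactose-2. Txnip, the thioredoxin-binding protein induced by glucose, had 8.43, 9.92 and 9.50, and Plin2, which coats lipid droplets, had 5.50, 6.51 and 6.09. The oxidation enzyme genes Acadm (5.39, 5.41 and 5.41) and Cpt2 (7.50, 7.57 and 7.57) hardly differed.

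Single antioxidant genes lay at both extremes. Of 33 kept genes of antioxidant defence, glutathione and the pentose phosphate pathway, 4 were among the most variable and 7 among the least variable. The share of all kept probe sets was 10.1% in each case, so the most variable count was near the background. The median relative SD of the list was 0.88. Catalase (Cat) had 7.64 on Galactose-1, 9.08 on Galactose-2 and 8.99 on Galactose-3, and transketolase (Tkt) had 7.19, 8.61 and 8.24. The peroxiredoxin gene Prdx5 had 6.45, 6.45 and 6.46, a relative SD of 0.034, and Prdx2 had 7.87, 7.94 and 7.93. Galactose-1 was thus low for catalase and Tkt, and for Sod3, which was kept through Galactose-2 alone. It was level with the others for these peroxiredoxins.

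In the integrated stress response list 5 of 20 kept probe sets, of 19 genes, were among the most variable, without a common direction. The share over all kept probe sets was 10.1%, here and for the lists that follow in this paragraph. The serine synthesis gene Psat1 had 7.33 on Galactose-1, 8.60 on Galactose-2 and 7.65 on Galactose-3, and Ddit4, an inhibitor of mTORC1 signalling, had 7.30, 6.69 and 7.77. The transcription factor genes at the head of this response, Atf4 (10.03, 10.13 and 10.28) and Atf5 (7.90, 7.75 and 7.65), had relative SDs of 0.67 and 0.54. Of 9 kept p53 targets 2 were among the most variable, and both were lowest on Galactose-1. Mdm2, the ubiquitin ligase that limits p53, had 6.83, 8.12 and 7.57, and the cell cycle inhibitor gene Cdkn1a had 6.40, 7.47 and 7.04. Of 13 kept cell cycle genes 4 were among the most variable. The cyclin gene Ccnb2 had 5.30, 6.46 and 6.34, and the ribonucleotide reductase gene Rrm2 had 4.74, 5.94 and 5.63, both low on Galactose-1.

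Galactose-2 and Galactose-3 differed from each other by at least 1 for 35 probe sets with 1 symbol, of which 20 were higher on Galactose-2 and 15 on Galactose-3. Beside Lcn2, Galactose-2 was high in Cd55, an inhibitor of complement on the cell surface, with 6.11 on Galactose-1, 7.57 on Galactose-2 and 5.65 on Galactose-3. Ly6g6c, a member of the Ly6 family, had 4.15, 5.94 and 3.82 and was kept through Galactose-2 alone. Emp1, an epithelial membrane protein, had 6.19, 6.63 and 4.68 and was low on Galactose-3 rather than high on Galactose-2. Zfp658l1 had 6.33, 4.36 and 5.97 and was low on Galactose-2 alone.

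Histone genes divided Galactose-2 and Galactose-3. Of 15 kept histone genes, Galactose-2 was highest for 12, against 30.5% of all kept probe sets, and Galactose-3 lowest for 10, against 22.5%. The median difference was -0.15 for Galactose-1, 0.40 for Galactose-2 and -0.39 for Galactose-3. H2ac4 had 5.61 on Galactose-1, 6.14 on Galactose-2 and 4.43 on Galactose-3, and Hist2h2be had 5.54, 6.36 and 5.39. The variant H2A gene H2ax had 6.14, 6.28 and 5.99, a relative SD of 0.72. Histone probe sets with several symbols were left out of this list, among them that of H2az2 with an SD of 1.40. Histone genes share sequence, so single members are uncertain. Immediate early genes, which respond within minutes to handling and to growth factors, had Galactose-3 lowest for 8 of 16 kept probe sets. Dusp1, a phosphatase of MAP kinases, had 6.28, 7.73 and 7.09, Fos had 6.25, 6.58 and 6.04, and Jund had 7.33, 7.32 and 7.33.

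**Figure D5:**
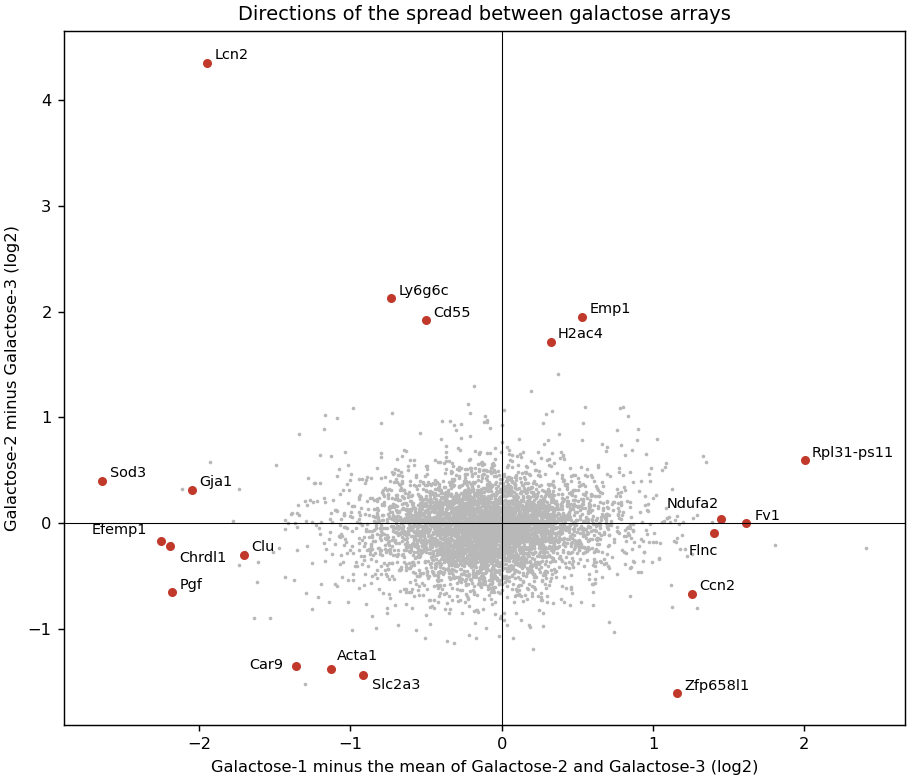
Directions of the spread. The x axis is Galactose-1 minus the mean of Galactose-2 and Galactose-3 and the y axis is Galactose-2 minus Galactose-3, both in log2 units, with 1 point per kept probe set and 20 genes named in red. Lcn2 stands alone at the top (4.35 higher on Galactose-2 than on Galactose-3), Gja1, Efemp1 and Sod3 lie far left (low on Galactose-1), Rpl31-ps11, Fv1 and Ndufa2 lie right, and Car9, Acta1 and Slc2a3 lie below (higher on Galactose-3).

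MicroRNA genes were few. Of 19 kept, 4 were among the most variable, against 10.1% of all kept probe sets. The array reads their precursors and flanking transcript rather than the mature form. Mir204, which lies in an intron of the channel gene Trpm3 and is a known microRNA of lens and retinal pigment epithelium, had 5.21 on Galactose-1, 5.17 on Galactose-2 and 6.25 on Galactose-3. Trpm3 itself had 5.06, 5.83 and 6.57, so both were highest on Galactose-3 and only Trpm3 separated the other 2 arrays. Mir138-2 had 6.38, 5.51 and 5.63 and was high on Galactose-1, Mir139 had 4.68, 5.40 and 5.27 and was low on Galactose-1, and Mir328 had 6.16, 5.87 and 5.11 and was low on Galactose-3. The mature forms of the 3 with an entry in the RefSeq table (GRCr8) are given with the seed, bases 2 to 8, in capitals.
rno-miR-204-5p: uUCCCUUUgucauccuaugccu
rno-miR-138-5p: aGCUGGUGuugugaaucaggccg
rno-miR-139-5p: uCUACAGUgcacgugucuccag
The seeds are different, so these microRNAs form no shared seed group.

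Crystallins, the bulk proteins of the fibre cells, differed little with few exceptions. The beta crystallin gene Cryba2 had 13.15, 13.15 and 13.14 on Galactose-1, Galactose-2 and Galactose-3, a relative SD of 0.023, and Cryba1 had 13.30, 13.23 and 13.23. Cryab, the small heat shock protein alpha B crystallin, had 13.15, 13.15 and 13.05. Of 7 gamma crystallins 2 were among the least variable, Crygs with 12.66, 12.70 and 12.67 and Crygb with 11.95, 11.97 and 11.89, and the median relative SD was 0.43. Crygf (11.77, 11.05 and 11.24) and Crygn (relative SD 1.64) did spread, with Galactose-1 highest. The crystallin signals lie near the top of the scale, where the highest value of any probe set was 13.56 on Galactose-1 and where quantile normalization gives the arrays like values, and the part of this in their small spread was not tested. With the arrays centred on the same median, the median relative SD was 0.66 for the gamma crystallins and 0.46 for the 3 alpha and beta crystallins, against 0.21 for these 3 as deposited.

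Genes of osmolyte transport and the polyol pathway spread less than genes of like signal, with a median relative SD of 0.63. Of 6 kept genes 0 were among the most variable and 3 among the least variable, against 10.1% and 10.1% of all kept probe sets. Akr1b1, the aldose reductase that turns galactose into galactitol, had 9.18 on Galactose-1, 9.67 on Galactose-2 and 9.44 on Galactose-3, a relative SD of 1.30. The amino acid transporter gene Slc38a2 had 6.08, 6.07 and 6.15, and Lrrc8a, a subunit of the volume-regulated anion channel, had 5.18, 5.14 and 5.16. The galactose metabolism list was not as steady. Of its 7 kept genes 2 were among the most variable and 1 among the least variable. Galactose-1 was lowest for 5, against 48.7% of all kept probe sets, and the median difference of Galactose-1 was -0.29. Glb1, the lysosomal beta-galactosidase, had 4.79, 5.32 and 5.80, and Galm, the galactose mutarotase, had 5.70, 6.26 and 6.51, and these were its most variable members. Galt, an enzyme of the Leloir pathway of galactose use, had 5.17, 5.37 and 5.24. Translation factors had 0 of 28 kept probe sets among the most variable and a median relative SD of 0.66. The aminoacyl-tRNA synthetases also had 0 of 18 among the most variable, but their median relative SD was 1.06, Galactose-3 was highest for 13, against 40.6% of all kept probe sets, and the median difference of Galactose-3 was 0.23. Sars1, the seryl-tRNA synthetase, had 9.38, 9.51 and 10.10.

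The genes with the smallest relative SD of all had no common list. Syf2, a splicing factor, had 6.12, 6.13 and 6.12 on the 3 galactose arrays, a relative SD of 0.017. Ube2l3, a ubiquitin-conjugating enzyme, had 9.59, 9.59 and 9.60, and the mitochondrial ribosomal protein gene Mrps10 had 5.38, 5.39 and 5.37. Over 3 arrays and 5293 probe sets, a value this small is no measure of the stability of a gene.

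Genes with several probe sets gave a check within the arrays. For 78 genes with 2 or more kept probe sets, the 2 with the highest mean signal were compared. The difference of Galactose-1 from the other 2 arrays had the same sign in 59 genes, that of Galactose-2 in 51 and that of Galactose-3 in 59. Probe sets of a gene may share sequence, so their agreement is not independent support. Across these genes, which are not independent and share the arrays, Pearson's r between probe sets was 0.47, 0.43 and 0.49. The elongin gene Eloc, with further kept probe sets that were not compared, was higher on Galactose-1 by 0.99 and 1.04. For Ndufb3, a subunit of complex I, Galactose-1 was higher by 0.88 and 1.16. The repressor gene Mxi1 was lower by similar amounts, with differences of -0.68 and -0.69. Ndufv3 went both ways, with 0.85 in one probe set and -0.43 in the other.

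The spread between the galactose arrays sets the scale for the single arrays of the other groups. The KU55933 array lay inside the galactose range for 54% of kept probe sets, the AZD0156 array for 39.8% and the Control array for 33.6%. Over the 533 most variable probe sets these shares were 84.6% for KU55933, 66.4% for AZD0156 and 57.8% for the Control, and over the 533 least variable they were 18.9%, 11.8% and 10.1%. A wide range takes in another array more easily, so the gap between the most and least variable follows from the choice of probe sets. Of all kept probe sets, the galactose array nearest to the single array was Galactose-1 for 38.9% with AZD0156, 42.2% with KU55933 and 36.6% with the Control. Of the 48 probe sets that were higher on Galactose-1 by at least 1, it was Galactose-1 for 9 (18.8%) with AZD0156, 34 (70.8%) with KU55933 and 26 (54.2%) with the Control. Of the 116 that were lower on it, it was Galactose-1 for 60 (51.7%) with AZD0156, 61 (52.6%) with KU55933 and 36 (31.0%) with the Control. Flnc is an example, with 7.81, 6.36 and 6.46 in galactose, against 5.25 for AZD0156, 7.62 for KU55933 and 5.49 in the Control. For Flnc the KU55933 array lay close to Galactose-1 and well above Galactose-2 and Galactose-3, whereas the AZD0156 and Control arrays lay below all 3.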

How the data were processed

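The deposited values are log2 signals, which the authors made in R by Robust Multi-array Average normalization of the 6 arrays together; package, version and annotation are not given in the sources used here. They were used as deposited. Probe sets without a linked gene (17599) and linked ones under 5 on all 3 galactose arrays were left out. Of 2668 unlinked probe sets at or over 5 on a galactose array, 28.4% had a range of at least 1; they were not analysed further.

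SDs, relative SDs, array differences and lists were computed in Python 3.11.15 (numpy 2.4.6, pandas 2.3.3, statsmodels 0.14.6, matplotlib 3.10.9). In R 4.3.3, limma 3.58.1 fitted a mean to the 3 galactose arrays (2 residual degrees of freedom), and each variance was set against the prior distribution that limma fits robustly with a trend on signal (prior degrees of freedom 6.83), upper tail, with Benjamini-Hochberg adjustment over 5293 probe sets and a threshold of 0.05. The script was tested on simulated data. Counts past a difference of 1 and list counts are descriptions with no test. P-values measure only the spread between these arrays.

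The members and the 45 gene lists were chosen with earlier results of these data known, and 41 lists had kept members. Genes named were picked from several sets, and not every member of a set is named. These sets held only probe sets with 1 gene symbol. The sets were the 15 with the highest and 10 with the lowest relative SD, and the 5 with the highest SD in each of 3 signal classes. Further sets were the 10 (Galactose-1) or 5 (Galactose-2, Galactose-3) with the largest difference in each direction. Up to 4 high and 2 low members of each list and genes the study names were added. Others were chosen after their values were seen, among them Trpm3, the microRNA genes, Eloc, Mxi1 and further list members. A list counted 1 of any probe sets with identical values (6 were identical to another). RefSeq sequences are of GRCr8.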

Additional observations from a re-analysis of the deposited data

How the results depend on the processing

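The groups compared are arrays of 1 group. No paired analysis was possible because only the galactose group has replicate numbers. The counts of probe sets depended on the filter. With a signal of at least 5 on all 3 arrays, the count past a difference of 1 was 93 for Galactose-1, 13 for Galactose-2 and 23 for Galactose-3, and 170 had a range of at least 1; with no filter these were 330, 116, 136 and 882, against 164, 31, 53 and 307 as reported. With 1 other array left out the counts were 172 to 214 for Galactose-1, 37 to 172 for Galactose-2 and 37 to 214 for Galactose-3, the range count was 37 to 214 and the median SD 0.123 to 0.204, the lowest without Galactose-1. No count can be given for an array that is itself left out. limma called 0 probe sets instead of 1 with at least 5 on all 3 arrays (where Lcn2 was not kept), with no filter, with the ordinary prior and with no trend (289 at an unadjusted p under 0.05 in the fit reported). With 1 array left out it called 14 to 55, on 1 residual degree of freedom, which does not compare with the others. The median relative SD of the alpha and beta crystallins was 0.353 with a lowess curve in place of bins, 0.456 with centred arrays and 0.0112 to 0.230 with an array left out, and that of the gamma crystallins was 0.700, 0.660 and 0.477 to 1.33. With an array left out, the epithelial list had 1.11 to 2.37, the matrix list 1.40 to 3.01 and the glycolysis and hypoxia list 1.14 to 2.46. Of 750 relative SDs of named genes under alternatives, 690 were within 1.5 times. Centring changed the sign of 23 of 126 list median differences and quantile normalization of the 3 arrays 4, but of the 22 with a size of at least 0.3 neither changed any. The centring and quantile values of list differences were added after the data were seen.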
